A study of Homo sapiens with 48 samples.

Results

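Uveal melanoma cells of the line 92-1 that had been held in the protein kinase C inhibitor IDE196 for 24 h were compared with cells of the same line given the solvent DMSO for 24 h. The members are 6 of the 48 samples of the series, chosen by their labels: the libraries titled 92-1 with IDE196 at 24 h (replicates 1 to 3) and the DMSO libraries at 24 h whose treatment label names them as negative control for IDE196 (replicates 4 to 6). The rule uses labels and no measured value, although the comparison and the gene lists were picked with earlier results of these data known; all genes were examined.

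The series measured RNA by sequencing in the uveal melanoma lines 92-1, MEL202 and MP41, with FHT-1015, an inhibitor of the SMARCA4 and SMARCA2 ATPases that power BAF chromatin remodellers, or with the solvent. Only 92-1 also received IDE196. The groups used here are 92-1 with IDE196 for 4 or 24 h, 92-1 with its own DMSO set for 4 or 24 h and, at the end, 92-1 with FHT-1015 for 24 h beside a separate DMSO set at 24 h, with 3 libraries in each group. All of these groups carry the genotype label WT, all stem from 1 established line, and no dose is given in the sources used here. The replicates are labelled as biological, but the labels do not say that they came from separate cultures, so the p-values measure the spread between these libraries.

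In most uveal melanomas a mutation locks the G protein alpha subunit GNAQ or GNA11 in its active state, and 92-1 is known to carry such a GNAQ mutation. The active subunit turns on phospholipase C beta, which makes diacylglycerol; diacylglycerol recruits protein kinase C and RASGRP3, an exchange factor that loads RAS with GTP and is itself phosphorylated by protein kinase C. The signal then runs through RAF, MEK and ERK to immediate early genes, to feedback inhibitors such as the Sprouty proteins and dual-specificity phosphatases, and to cyclin D1 and MYC. IDE196, also called darovasertib, blocks protein kinase C at the step above RAS.

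The depth and make-up of the libraries were as follows. Reads counted in genes ranged from 21586788 to 23086368 in the 3 DMSO libraries at 24 h and from 17838297 to 22981913 in the 3 treated ones. Mitochondrially encoded genes took 3.79% to 5.29% of the counted reads in DMSO and 6.66% to 7.74% under IDE196, and the 50 most abundant genes took 17.7% to 18.6% and 22.2% to 23.7%. The groups also did not overlap in unmapped reads (1.42% to 1.49% in DMSO, 2% to 2.37% under IDE196), multimapping reads (3.31% to 3.53%, 4.04% to 5.26%), reads outside genes (2.29% to 2.86%, 2.9% to 3.44%) or genes with a read (21902 to 22706, 22854 to 23253), and the part of these differences in the results was not tested. The summed level of 7 uveal melanoma line markers, most of it PMEL, was 8225 to 9626 CPM in DMSO and 8550 to 10240 CPM under IDE196. Among them MITF, SOX10, PMEL, MLANA and TYR were at 74.7 CPM or more in every library, DCT was at 1.06 to 2.95 CPM in DMSO and 14.5 to 19.7 CPM under IDE196, and S100B was at most 0.435 CPM. CPM is the read count scaled to a common library total; marker sums, and the marker levels given here, are without TMM normalisation, and all later levels of single genes are with it. Markers of endothelium summed to at most 0.74 CPM and those of leukocytes to at most 0.631 CPM in any of the 6 libraries. Neuron markers summed to 1.26 to 3.21 CPM in DMSO and 0.87 to 4.43 CPM under IDE196. The sum of 7 Schwann cell markers, several of which melanocytic cells also express, was higher under IDE196, at 2201 to 2534 CPM beside 597 to 620 CPM in DMSO; 3 of the 4 tested were called higher, and their part in the results below was not tested. The 7 epithelial markers summed to 8.42 to 27.1 CPM in DMSO and 11.7 to 28 CPM under IDE196, led by KRT5, which varied from 0.174 to 7.92 CPM among the DMSO libraries alone. None of those 7 epithelial markers passed the test between the groups, but the result for KRT5 depended on the setting: it was called higher without DMSO replicate 5 (2.04), with no low-count filter (1.03), with limma-voom (2.04) and with a random replicate block (1.98).

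Of 15437 genes tested with edgeR's quasi-likelihood test, 4429 (28.7%) were higher and 4539 (29.4%) lower under IDE196 at 24 h at a Benjamini-Hochberg adjusted p under 0.05. A change of at least 2-fold as well was seen for 1886 genes upward (12.2%) and 1535 downward (9.94%). For 10022 genes (64.9%) the 3 treated libraries did not overlap the 3 DMSO libraries, lying above them for 32.6% and below them for 32.3% of genes. The median log2 fold change over all genes tested was 0.029, so the change of a list is read below against a centre close to 0, and against a background in which 58.1% of genes were called in either direction. With so wide a response the count of called members says less than their direction and size. In the plot of fold change against abundance, genes of ERK output other than SPRED3 lie below 0 at low and high levels alike.

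**Figure D1:**
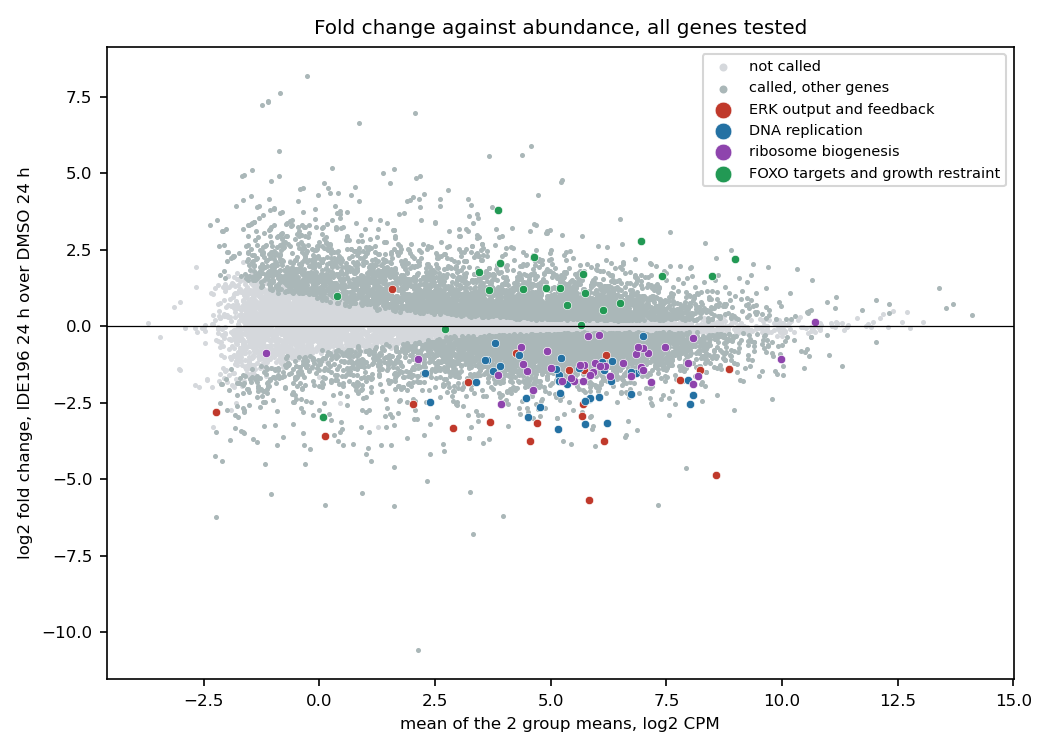
The log2 fold change of IDE196 24 h over DMSO 24 h is plotted against the mean level in log2 CPM for the 15437 genes tested, 1 point per gene, with 4 gene lists in colour. All 38 DNA replication genes (blue) lie below 0, and 18 of the 21 FOXO list genes (green) were called higher.

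Promoter sequences are shown for 5 genes that fell, chosen after their values were seen, to set immediate early genes beside genes of DNA replication and its activator E2F1. They run from 250 bases before to 30 bases after the RefSeq start on GRCh38.p14, 5′ to 3′ on the gene's strand. In the first pair, NR4A3 (chr9:99821635-99821914, plus strand) and EGR1 (chr5:138465229-138465508, plus strand), capitals mark TGACG, the core of the cyclic AMP response element, or its reverse complement CGTCA.
NR4A3: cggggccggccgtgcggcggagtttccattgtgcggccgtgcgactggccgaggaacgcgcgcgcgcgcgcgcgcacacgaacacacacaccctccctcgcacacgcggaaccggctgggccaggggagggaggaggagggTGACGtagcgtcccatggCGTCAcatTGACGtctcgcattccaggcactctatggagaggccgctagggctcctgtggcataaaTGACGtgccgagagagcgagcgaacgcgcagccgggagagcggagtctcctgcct
EGR1: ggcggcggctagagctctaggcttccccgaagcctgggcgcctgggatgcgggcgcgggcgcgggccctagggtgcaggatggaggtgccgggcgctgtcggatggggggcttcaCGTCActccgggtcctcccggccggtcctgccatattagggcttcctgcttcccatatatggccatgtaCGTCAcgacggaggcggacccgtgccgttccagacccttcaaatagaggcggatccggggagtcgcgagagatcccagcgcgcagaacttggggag
NR4A3 holds the core at 4 places and EGR1 at 2. Of the immediate early genes tested, 22 have a promoter in the RefSeq table and 15 of these (68.2%) hold the core on either strand, beside 33.3% of 10919 tested genes with a promoter and 23.9% of all 27305 promoters of this length.

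In the next 3, MCM6 (chr2:135876414-135876693, minus strand), CDC6 (chr17:40287629-40287908, plus strand) and E2F1 (chr20:33686356-33686635, minus strand), capitals mark the E2F-type words TTTCGCGC and TTTGGCGC and their reverse complements GCGCGAAA and GCGCCAAA. This motif was chosen after the fall of the replication genes had been seen.
MCM6: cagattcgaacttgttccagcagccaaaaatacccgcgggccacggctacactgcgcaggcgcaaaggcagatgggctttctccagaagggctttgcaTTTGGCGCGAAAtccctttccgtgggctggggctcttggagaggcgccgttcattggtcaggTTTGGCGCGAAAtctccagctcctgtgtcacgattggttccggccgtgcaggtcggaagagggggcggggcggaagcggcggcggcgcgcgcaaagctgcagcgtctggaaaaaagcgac
CDC6: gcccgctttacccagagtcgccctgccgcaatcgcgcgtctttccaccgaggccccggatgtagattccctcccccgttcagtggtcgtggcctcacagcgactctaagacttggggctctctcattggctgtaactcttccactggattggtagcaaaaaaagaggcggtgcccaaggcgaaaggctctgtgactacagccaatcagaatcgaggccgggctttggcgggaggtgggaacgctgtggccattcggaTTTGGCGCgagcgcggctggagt
E2F1: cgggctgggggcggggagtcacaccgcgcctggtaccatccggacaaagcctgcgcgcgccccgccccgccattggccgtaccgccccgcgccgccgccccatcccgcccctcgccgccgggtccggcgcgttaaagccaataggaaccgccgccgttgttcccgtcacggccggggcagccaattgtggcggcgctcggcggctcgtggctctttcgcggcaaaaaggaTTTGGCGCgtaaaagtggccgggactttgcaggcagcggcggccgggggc
In MCM6, TTTGGCGC and GCGCGAAA overlap in each of 2 longer runs. The words occur in 10 of the 34 DNA replication genes with a promoter in the table (29.4%), in 1.97% of the promoters of tested genes and in 1.12% of all promoters. No promoter on the immediate early list holds them. The full element TGACGTCA was found in 3 of the 22 immediate early promoters (13.6%) and the E-box CACGTG in 5 (22.7%). Promoters of tested genes held them in 3.33% and 9.85% of cases. The AP-1 word TGANTCA and the ETS word CCGGAAG were in 1 each (4.55%), beside 4.11% and 18.5% of promoters of tested genes. All were searched on both strands, and the full element contains the core. Among the other lists the core was in 6.25% (receptor tyrosine kinases) to 58.3% (BCL2 family) of promoters. A match of letters is a description and shows no binding.

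The comparison asks first what 24 h of protein kinase C inhibition did to the pathway that IDE196 targets. Transcripts of the kinases themselves did not fall. Of 8 protein kinase C isoforms tested, 5 rose and none fell, with a median log2 fold change of 0.29. On a scale corrected for gene length and depth (RPKM), PRKCD was the most abundant isoform in DMSO with 11.97 RPKM, followed by PRKCI with 7.09 and PRKCE with 5.55, and PRKCB was the least abundant with 0.682. PRKCA, a classical isoform that answers to calcium and diacylglycerol, stood at 28, 25.9 and 24 CPM in the DMSO libraries and at 44.8, 48.4 and 56.6 CPM in the treated ones. All treated libraries were above all DMSO libraries, and PRKCA rose by 0.94 ± 0.14 (SE) in log2 fold change (edgeR adjusted p = 2e-05). PRKCH, a member of the diacylglycerol-dependent group that needs no calcium, rose by 1.22 ± 0.11, and the atypical isoform PRKCZ by 1.13 ± 0.12. PRKCD rose by 0.29 ± 0.10 and PRKCI by 0.26 ± 0.11. The log2 fold changes of PRKCE, PRKCQ and PRKCB were 0.28, 0.27 and 0.00, and these did not pass the test, although PRKCE was called higher with no low-count filter (0.28), with limma-voom (0.26) and in a fit of only the 6 libraries (0.28). The small rises depended on single libraries: without DMSO replicate 4, PRKCD and PRKCI were no longer called and 3 isoforms remained higher. PRKCD was not called without IDE196 replicate 1, nor PRKCI without any 1 of the other libraries (0.21 to 0.29).

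Several genes between the mutated G protein and RAS fell. Of 19 genes of the Gq and protein kinase C pathway tested, 10 were lower and 3 higher (all genes tested: 29.4% lower, 28.7% higher). RASGRP3 (ENSG00000152689.18, chr2:33436324-33564750, plus strand) had 253, 252 and 248 CPM in DMSO and 45.4, 41.6 and 40.3 CPM under IDE196. The libraries of each group lay close together and the groups were 5.91-fold apart (log2 fold change -2.56 ± 0.09, edgeR adjusted p = 1.8e-12). RASGRP3 was already lower at 4 h, at -1.32, and the further fall to 24 h passed the test of the difference between the times (-1.24, edgeR adjusted p = 1.5e-06). PLCB1, a phospholipase C beta isoform, fell from 19.9, 20 and 18.4 CPM to 2.46, 2.2 and 2.11 CPM. PLCB4, the isoform that is itself recurrently mutated in uveal melanoma, fell by 1.54 ± 0.16 and PLCB2 by 1.77 ± 0.29 on the log2 scale. GNA11 fell by 0.59 ± 0.08, whereas GNAQ had 104, 122 and 103 CPM in DMSO and 133, 120 and 132 CPM under IDE196, and the groups overlapped; GNAQ was called higher, at 0.30, without DMSO replicate 5. MARCKS, a membrane protein that protein kinase C phosphorylates, rose by 1.01 ± 0.10, and the diacylglycerol kinase DGKA rose by 1.20 ± 0.21.

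Of 17 genes of the RAF-MEK-ERK cascade tested, 6 rose and 6 fell (all genes tested: 28.7% and 29.4%), with a median of 0.03. RPS6KA3 was the only member to change by at least 2-fold. RPS6KA3 encodes the ERK-activated kinase RSK2. It stood at 681, 643 and 594 CPM in DMSO and at 146, 130 and 127 CPM under IDE196 (log2 fold change -2.25 ± 0.09). MAP2K1 fell by 0.70 ± 0.12 and SOS1 by 0.82 ± 0.09, while MAP2K2 rose by 0.60 ± 0.08.

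Genes known to report ERK activity fell. Of 22 tested, 21 were lower at 24 h, 18 of them by at least 2-fold, beside 29.4% of all genes tested that were lower, and SPRED3 alone was higher. The median log2 fold change was -2.55 (-2.18 with EPHA4, which had at most 3 reads in any treated library, set to its bound). SPRY4 (ENSG00000187678.9, chr5:142310427-142326455, minus strand), a Sprouty inhibitor of receptor signalling to RAS, had 103, 121 and 113 CPM in DMSO and 1.95, 2.53 and 2.11 CPM under IDE196. The fall was 51.2-fold (log2 fold change -5.68 ± 0.14, edgeR adjusted p = 9.7e-15). SPRY2 fell from 42.3, 39.1 and 50.7 CPM to 3.39, 4.2 and 2.05 CPM. DUSP6, the phosphatase that removes the activating phosphates from ERK in the cytoplasm, fell from 25.2, 21.3 and 23.1 CPM to 3.26, 2.72 and 1.95 CPM. DUSP4, a nuclear phosphatase of the same family, fell from 638, 689 and 669 CPM to 257, 243 and 264 CPM (-1.38 ± 0.10).

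The ETS factors of the PEA3 group, which ERK induces and stabilises, fell as well. ETV4 had 130, 137 and 130 CPM in DMSO and 8.34, 10.9 and 9.99 CPM under IDE196 (log2 fold change -3.76 ± 0.11). ETV1 fell by 3.15 ± 0.13 and ETV5 by 2.94 ± 0.14. FOSL1, an AP-1 subunit, fell from at least 1.85 CPM in DMSO to at most 0.324 CPM. VGF, a secreted neuroendocrine precursor that growth factors induce, fell from 789, 697 and 712 CPM to 21, 36.1 and 17.8 CPM (-4.87 ± 0.24). CCND1, cyclin D1, stood at 420, 440 and 444 CPM in DMSO and at 170, 142 and 176 CPM under IDE196.

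**Figure D2:**
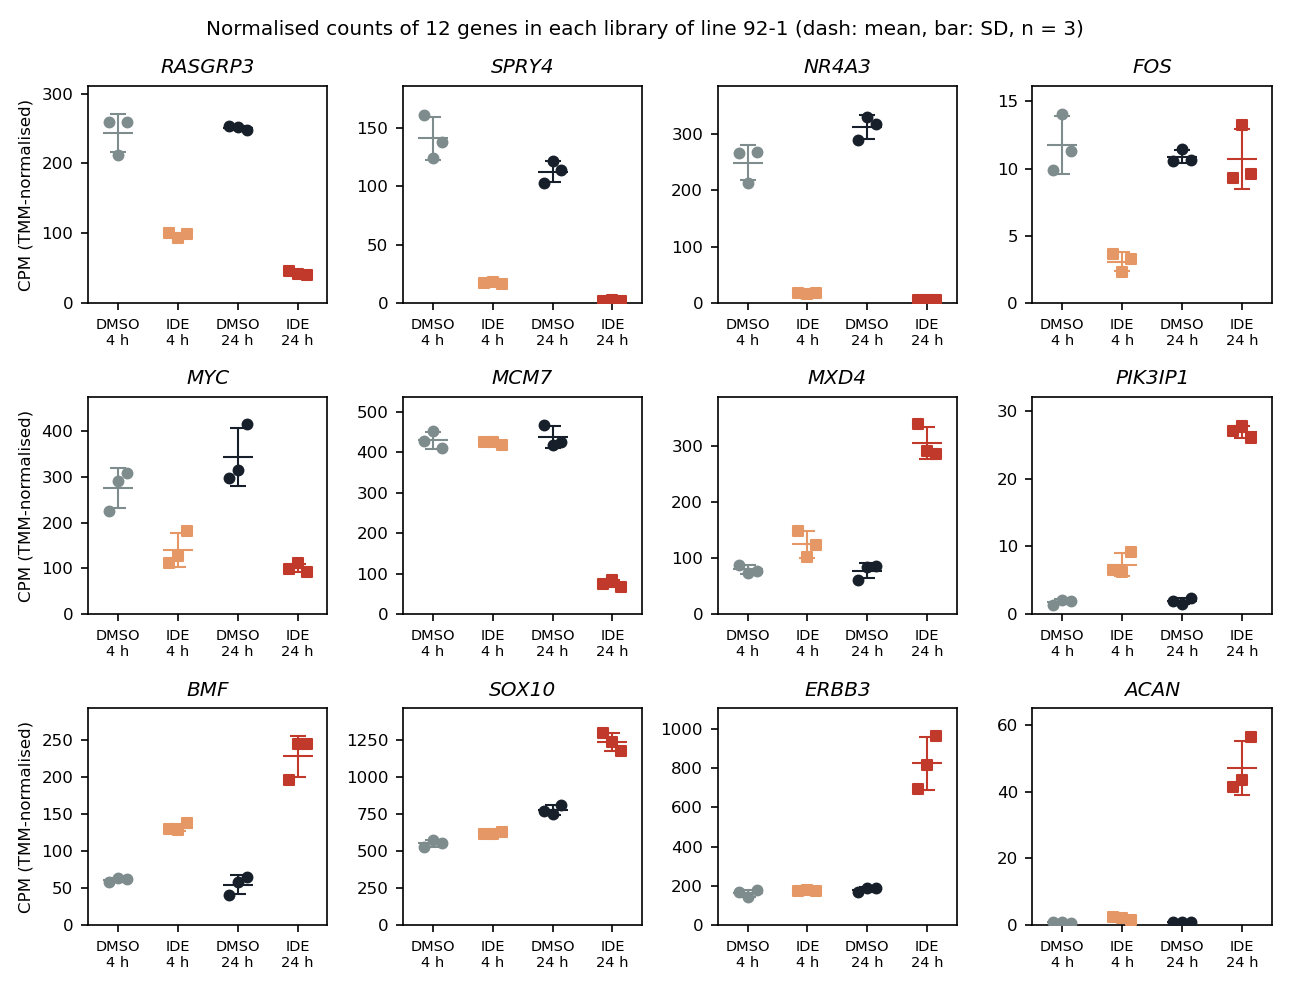
TMM-normalised CPM of 12 genes in each library (points), with the mean (dash) and SD (bar) of 3 libraries per group, for DMSO and IDE196 at 4 h and 24 h; each y axis starts at 0. SPRY4, NR4A3 and RASGRP3 were low at both times, MCM7 was lower at 24 h and not at 4 h, and the FOS means at 24 h were close, with the IDE196 libraries lying on both sides of the DMSO ones.

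Immediate early genes divided at 24 h. Of 28 tested, 18 were lower and 5 higher, with a median log2 fold change of -1.48. NR4A3 (ENSG00000119508.18, chr9:99821855-99866891, plus strand), an orphan nuclear receptor, had 289, 330 and 318 CPM in DMSO and 5.63, 5.73 and 4.75 CPM under IDE196, a 57.8-fold fall (log2 fold change -5.85 ± 0.13, edgeR adjusted p = 8.1e-15). Its relative NR4A1 fell from 168, 174 and 207 CPM to 15.7, 16.2 and 15 CPM. EGR1, a zinc finger factor induced through serum response elements, fell from 12.9, 12.8 and 11.1 CPM to 1.06, 0.478 and 0.594 CPM. JUNB fell by 1.46 ± 0.13 and the phosphatase gene DUSP1 by 1.55 ± 0.14. JUN went the other way, from 26.5, 23.5 and 25.9 CPM to 95.4, 107 and 104 CPM (2.01 ± 0.18), and the stress-induced factor ATF3 rose from 4.57, 3.88 and 3.83 CPM to 11, 15.9 and 14.8 CPM.

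FOS was low at 4 h, while at 24 h the group means were close. The log2 fold change of FOS was -1.92 at 4 h (edgeR adjusted p = 2.1e-06). FOS at 24 h had 10.6, 11.4 and 10.7 CPM in DMSO and 9.27, 13.3 and 9.62 CPM under IDE196, and the value was -0.02 ± 0.17. The difference between the times was 1.90 (edgeR adjusted p = 3.2e-05). EGR1 showed no such return, with -4.00 at 4 h and -4.07 at 24 h.

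RGS16 carried the largest fall of any protein-coding gene whose level averaged 5 CPM or more and whose groups did not overlap. RGS proteins speed the GTPase of Gq and Gi subunits and so shorten their signal. RGS16 (ENSG00000143333.7, chr1:182598623-182604408, minus strand) had 16, 19.4 and 24.1 CPM in DMSO and 0.127, 0.239 and 0.162 CPM under IDE196. The treated values rest on 3 to 5 reads per library, so the fitted log2 fold change of -6.78 ± 0.29 is imprecise in size. RGS2, which acts on Gq, fell from 20.6, 27 and 39.5 CPM to 6.14, 6.54 and 6.59 CPM. RGS9 rose from 2.9, 3.83 and 3.15 CPM to 8.26, 11.3 and 10.5 CPM. Of the 12 RGS genes tested, 7 fell and 5 rose (all genes tested: 29.4% and 28.7%).

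Other genes among the largest falls differ in function. ALK (ENSG00000171094.18, chr2:29192774-29921566, minus strand), a receptor tyrosine kinase of the neural crest, had 22.1, 27 and 43.3 CPM in DMSO and 0.55, 0.525 and 0.108 CPM under IDE196 (log2 fold change -6.21 ± 0.50). At 4 h the log2 fold change of ALK was 0.04. NRCAM, a neuronal cell adhesion molecule, fell from 453, 478 and 460 CPM to 16.1, 21.9 and 17.7 CPM, with -0.03 at 4 h. FGF9, a fibroblast growth factor, fell from 70.3, 82.4 and 90.6 CPM to 6.22, 5.49 and 5.08 CPM. PLXNA4, a semaphorin receptor, fell from 17.3, 18.7 and 19.9 CPM to 0.296, 0.621 and 0.378 CPM. The sodium-calcium exchanger SLC8A1, the secreted protein LGI2 and the transporter SLC16A6 fell by 5.06 ± 0.41, 4.19 ± 0.33 and 3.91 ± 0.18 on the log2 scale; SLC16A6 overlaps ARSG on the opposite strand, and counts made without strand cannot separate them.

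The next group of lists concerns the division cycle. Every one of 38 DNA replication genes tested was lower at 24 h, 35 of them by at least 2-fold, with a median log2 fold change of -1.77. The genes of the replicative helicase and its loader fell together. MCM7 (ENSG00000166508.17, chr7:100092728-100101940, minus strand) had 468, 417 and 426 CPM in DMSO and 75.1, 83.5 and 67.5 CPM under IDE196 (-2.54 ± 0.09, edgeR adjusted p = 1.8e-12). MCM4 fell from 494, 434 and 403 CPM to 96.4, 94.8 and 89.2 CPM, and MCM6 from 122, 107 and 100 CPM to 25.7, 22.3 and 18.3 CPM. CDC6, which loads the helicase onto origins, fell from 110, 90.9 and 87.2 CPM to 10.2, 11.4 and 10.2 CPM, and MCM10, which helps to activate it, by 3.36 ± 0.15 on the log2 scale. PCNA, the sliding clamp, fell by 2.23 ± 0.11 and RRM2, the regulated subunit of ribonucleotide reductase, by 2.38 ± 0.16. CDT1 and PRIM1 had the smallest falls, with -0.33 ± 0.10 and -0.56 ± 0.14, and CDT1 was not called without IDE196 replicate 1 (-0.28). In a fit of all 48 samples neither CDT1 (-0.28) nor PRIM1 (-0.51) was called. At 4 h only 3 of the 38 were lower and 1 higher, and for all 38 the 24 h effect was below the 4 h effect in the test of the difference, beside 17.2% of all genes tested.

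Most mitosis genes fell. Of 35 tested, 30 were lower and none higher, with a median of -0.89, and 15 fell by at least 2-fold. MYBL2, the MYB family factor of the activator complex for G2 genes, fell from 321, 285 and 228 CPM to 55.8, 62.5 and 43.3 CPM. CDK1 fell by 1.66 ± 0.12 and FOXM1, a factor that drives mitotic genes, by 1.34 ± 0.13. MKI67, the Ki-67 antigen, had 249, 234 and 171 CPM in DMSO and 130, 154 and 151 CPM under IDE196 (-0.58 ± 0.14), and was not called in a fit of all 48 samples (-0.54). Mitotic transcripts at 4 h were not lower: 3 were called higher and none lower. The RNA of bulk cultures cannot tell fewer cycling cells from less of each transcript per cell.

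Regulators of entry into S phase mostly fell. Of 24 cyclin, CDK, CDK inhibitor, E2F and retinoblastoma family genes tested, 16 were lower and 4 higher. E2F1, the activator of replication genes, fell from 77.8, 69.6 and 68.4 CPM to 5.63, 6.54 and 3.62 CPM (log2 fold change -3.76 ± 0.17), and E2F2 fell by 3.26 ± 0.18. CCNE2, cyclin E2, fell by 2.61 ± 0.23. CCND1 fell by 1.42 ± 0.12 and CCND3 by 1.02 ± 0.09, while CDK4 fell by 0.51 ± 0.08 and CDK6 by 0.53 ± 0.14; CDK6 was not called in a fit of all 48 samples (-0.48). The CDK inhibitor CDKN1B (p27) rose from 61.8, 62.1 and 67 CPM to 97.7, 102 and 102 CPM, and CDKN1C (p57) from 13.2, 26.3 and 30.1 CPM to 36, 48.9 and 48.4 CPM. CDKN1A (p21), the inhibitor that p53 induces, had 104, 129 and 174 CPM in DMSO and 87.2, 125 and 130 CPM under IDE196, and the groups overlapped. RBL2, a retinoblastoma relative of resting cells, rose by 0.76 ± 0.13 and its counterpart RBL1 fell by 1.01 ± 0.15.

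MYC, the growth regulator, had 298, 314 and 415 CPM in DMSO and 99.1, 111 and 92.5 CPM under IDE196 (log2 fold change -1.76 ± 0.17, edgeR adjusted p = 9.5e-08). Of 12 MYC network genes tested, 4 rose and 4 fell, with a median of 0.16, so the list as a whole lay close to all genes tested. MXD4 and MXI1, which compete with MYC for its partner MAX, were among those that rose. MXD4 went from 61.6, 83.3 and 86.7 CPM to 339, 292 and 287 CPM and MXI1 from 41.7, 39.8 and 41 CPM to 110, 96.6 and 101 CPM. Ribosome biogenesis genes, a known target group of MYC, fell in 38 of 40 cases, 28 by at least 2-fold, with a median of -1.29. The nucleolar proteins NOP16 and LYAR fell by 2.54 ± 0.19 and 2.10 ± 0.12, and NOLC1, a chaperone of the nucleolus, fell from 431, 434 and 410 CPM to 117, 113 and 115 CPM. This group had moved early: 34 of the 40 were already lower at 4 h, with a median of -0.55, and for 24 of these 34 the 24 h effect was further below in the test of the difference. The genes of the ribosomal proteins themselves did not follow, with a median of -0.01 over 53 genes and 1 of them called lower.

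Genes of glucose use mostly fell. Of 21 glycolysis genes tested, 13 fell and 3 rose, with a median of -0.87. HK1, hexokinase 1, fell from 238, 252 and 239 CPM to 47.4, 41.4 and 40.6 CPM, and the glucose transporter SLC2A1 from 27.9, 20.9 and 26 CPM to 5.59, 4.63 and 4.7 CPM. HK2 fell by 1.98 ± 0.11, with -1.74 already at 4 h. LDHA, lactate dehydrogenase, was at -0.33 at 4 h and fell from 978, 912 and 758 CPM to 281, 259 and 231 CPM at 24 h. Of 25 genes of the ATF4 stress response, 13 fell and 4 rose; TRIB3 fell by 1.77 ± 0.11, whereas DDIT4, an inhibitor of mTOR complex 1, rose from 1.01, 2.27 and 2.38 CPM to 12.3, 13.5 and 17.9 CPM.

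**Figure D3:**
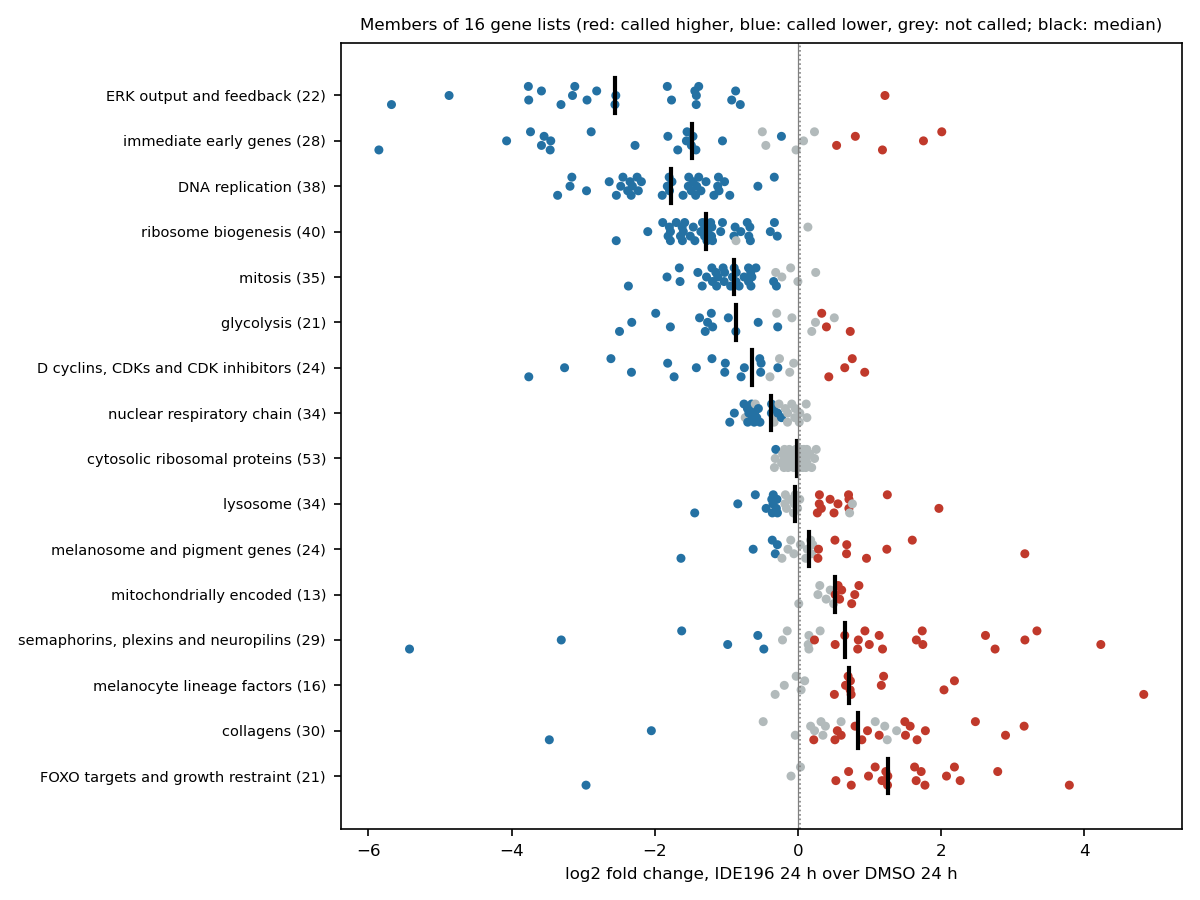
Log2 fold change of IDE196 24 h over DMSO 24 h for each tested member of 16 gene lists, 1 point per gene, with the number tested in brackets and the median as a black line; the dotted line is the median of all genes tested. DNA replication and ribosome biogenesis genes lie below 0 as groups, genes of the FOXO and growth restraint list lie mostly above 0, and ribosomal protein genes sit at 0.

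Genes on the FOXO and growth restraint list rose. Of 21 genes tested on this list, 18 were higher and 1 lower, with a median of 1.26, beside 28.7% of all genes tested that were higher. The list joins FOXO targets with growth restraint genes, and its member ERBB3 is also on the lineage list. FOXO factors enter the nucleus when AKT is inactive. PIK3IP1, an inhibitor of PI3-kinase, rose from 1.93, 1.42 and 2.42 CPM to 27, 27.8 and 26 CPM (log2 fold change 3.80 ± 0.20). SESN3, a sestrin that restrains mTOR complex 1, rose from 31.9, 31.1 and 30.1 CPM to 208, 211 and 228 CPM. FOXO1 itself rose from 8.48, 7.8 and 9.35 CPM to 40.8, 39.6 and 43.5 CPM and FOXO3 by 1.66 ± 0.10. IRS2, the adaptor of the insulin receptor, rose from 160, 168 and 198 CPM to 574, 492 and 566 CPM, and CCNG2, a cyclin of resting cells, by 1.73 ± 0.13. TXNIP, an inhibitor of glucose uptake, rose by 2.08 ± 0.21. PDK4 was the member that fell, from at most 2.79 CPM to at most 0.334 CPM. At 4 h, 13 of the 21 were higher and 1 was lower.

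Of 15 BCL2 family genes tested, 5 rose and 6 fell, shares not far from the 28.7% and 29.4% of all genes tested. Among the BH3-only genes, whose products promote apoptosis, BMF rose from 40.6, 58.2 and 64.8 CPM to 196, 244 and 244 CPM (log2 fold change 2.06 ± 0.13) and BBC3 (PUMA) from 15.5, 19.1 and 34.1 CPM to 64.3, 65.2 and 58.4 CPM. HRK rose by 0.90 ± 0.15. BID and PMAIP1 (NOXA) fell by 1.22 ± 0.11 and 1.27 ± 0.19, and the effectors BAX and BAK1 by 0.86 ± 0.16 and 0.54 ± 0.09. BCL2L11 (BIM), whose product ERK is known to hold down, was lower in RNA, with -1.11 at 4 h and -0.45 ± 0.16 at 24 h. Protein was not measured. The survival gene BCL2 fell by 0.37 ± 0.14, while BCL2L1 and MCL1 were at 0.20 ± 0.12 and -0.08 ± 0.09 and did not pass the test. The BCL2L11 call was lost without DMSO replicate 5 or 6 or IDE196 replicate 2 or 3 (-0.46 to -0.35), and the BCL2 call without DMSO replicate 4 or 5 or IDE196 replicate 2 (-0.37 to -0.32). Of 23 p53 targets tested, 8 rose and 4 fell; BTG2, an antiproliferative member, rose by 1.35 ± 0.18.

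Most factors that specify melanocytes rose. Of 16 lineage factors tested, 11 were higher and none lower (1 lower with no low-count filter or without IDE196 replicate 1), with a median of 0.72, beside 28.7% of all genes tested that were higher. MITF, the master factor of the lineage, had 560, 560 and 477 CPM in DMSO and 587, 545 and 576 CPM under IDE196 at 24 h, and the groups overlapped. At 4 h MITF was lower, at -0.56 (edgeR adjusted p = 0.00021), and the difference between the times was 0.66 (edgeR adjusted p = 0.00057). SOX10 (ENSG00000100146.17, chr22:37970686-37987422, minus strand), the neural crest factor upstream of MITF, rose from 769, 747 and 811 CPM to 1293, 1234 and 1172 CPM; the gene overlaps POLR2F on the opposite strand. IRF4, a factor of melanocyte pigmentation, rose from 0.352, 0.236 and 0.255 CPM to 8.85, 8.64 and 7.08 CPM (4.84 ± 0.33). The receptors ERBB3 and EDNRB, which the neural crest uses, rose to 694, 817 and 965 CPM from 167, 190 and 186 CPM and by 2.04 ± 0.14 in log2 fold change. TFAP2A rose by 1.17 ± 0.09 and FOXD3, a factor of neural crest precursors, by 1.20 ± 0.16.

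Pigment genes did not change as a group. Of 24 melanosome genes tested, 9 rose and 5 fell (all genes tested: 28.7% and 29.4%), with a median of 0.16. PMEL, which forms the melanosome fibrils, had 7888, 7053 and 6311 CPM in DMSO and 7462, 6953 and 6048 CPM under IDE196. MLANA and TYRP1 were at 0.18 ± 0.10 and 0.13 ± 0.10 and did not pass the test, and TYR fell by 0.36 ± 0.14. Without DMSO replicate 4 or 5, or IDE196 replicate 2 or 3, TYR was not called (-0.39 to -0.19) and 3 in place of 5 melanosome genes were lower; without IDE196 replicate 3, MLANA was called higher at 0.28. DCT, dopachrome tautomerase, rose from 2.99, 1.09 and 1.28 CPM to 19.1, 14.2 and 15.2 CPM, and OCA2, the melanosomal transporter, by 1.25 ± 0.13. GPNMB, a glycoprotein of melanosomes and lysosomes, rose from 1755, 1443 and 1463 CPM to 3322, 2912 and 2841 CPM. CD63, which sorts PMEL, fell from 1146, 1102 and 1010 CPM to 436, 352 and 263 CPM.

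The markers of the retinal pigment epithelium summed to 10.9 to 15.7 CPM in DMSO and 34.1 to 42.6 CPM under IDE196, and of the 3 tested 1 was higher and 1 lower. BEST1, the most abundant of them, rose from 11.9, 8.46 and 11.1 CPM to 39, 30.5 and 30.9 CPM; it overlaps FTH1 on the opposite strand, and its log2 fold change of 1.67 turned to -0.17 when the counts of both strands were summed. Whether other cells contributed to these values was not tested, and the line was labelled as uveal melanoma only.

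The largest rises include genes of the extracellular matrix and of signalling at the cell surface. ACAN (ENSG00000157766.16, chr15:88803442-88875354, plus strand), the cartilage proteoglycan aggrecan, rose from 0.791, 0.804 and 0.765 CPM to 41.5, 43.5 and 56.4 CPM, a 59.5-fold rise (log2 fold change 5.89 ± 0.19, edgeR adjusted p = 3.1e-13). ADAMTS15, a protease of such proteoglycans, rose from 0.308, 0.473 and 0.765 CPM to 15.1, 26.4 and 33.5 CPM. NOG, the BMP antagonist noggin, rose from 0.659, 0.567 and 0.553 CPM to 16.7, 10.6 and 12.3 CPM. EFNA1, an ephrin ligand, rose from 1.32, 1.51 and 2.08 CPM to 23.6, 25.6 and 25.3 CPM, and its receptor EPHA2 fell from 88.6, 79.4 and 96.8 CPM to 14.9, 15.8 and 14.4 CPM. EMP1, a membrane protein, rose from 4, 2.69 and 0.978 CPM to 66.1, 52.2 and 32.2 CPM, with wide spread in both groups. PGM5, GPR158, NCKAP5, PDZD2 and the thyroid hormone receptor THRB rose by between 3.93 and 4.80 on the log2 scale.

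Proteoglycan and ADAMTS genes did not move in 1 direction: of 26 tested, 12 rose and 7 fell. For this and the next lists, the shares over all genes tested were 28.7% higher and 29.4% lower. SDC2, syndecan 2, rose from 2.33, 1.94 and 1.45 CPM to 16.2, 16.4 and 17.6 CPM, whereas ADAMTS1 fell from 53.4, 46.4 and 52.2 CPM to 7.2, 9.79 and 7.02 CPM. Collagens were mostly higher. Of 30 tested, 16 rose and 2 fell, with a median of 0.85; COL9A1 rose from 4.53, 6.81 and 7.61 CPM to 44.6, 55.8 and 69.7 CPM, and COL15A1 fell by 2.05 ± 0.13. Fibroblast markers, which include collagen genes, summed to 7.68 to 12 CPM in DMSO and 12.7 to 23.2 CPM under IDE196, and 1 of the 5 tested was higher. Of 26 integrins and laminins, 10 rose and 8 fell; LAMA4 rose from 9.32, 8.27 and 7.7 CPM to 61.5, 56.3 and 83.2 CPM and the collagen receptor subunit ITGA2 by 2.16 ± 0.17.

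Of 29 semaphorins, plexins and neuropilins tested, 17 rose and 6 fell (all genes tested: 28.7% and 29.4%). SEMA3B rose from 2.68, 2.88 and 2.81 CPM to 25.1, 23.6 and 27.1 CPM and SEMA3D from 0.22, 0.378 and 0.595 CPM to 4.49, 7.07 and 11.4 CPM, while SEMA3A fell from 3.43, 2.55 and 4.12 CPM to 0.254, 0.143 and 0.648 CPM. Of 20 receptor tyrosine kinases tested, 9 rose and 3 fell, and the share called in either direction was close to the 58.1% of all genes. FGFR2 rose from 0.879, 1.04 and 0.978 CPM to 11.3, 9.84 and 9.99 CPM, FGFR3 from 28.4, 23.5 and 27.2 CPM to 130, 107 and 120 CPM, and NTRK2 from 35.5, 41.8 and 43.8 CPM to 163, 182 and 216 CPM. RET rose by 2.25 ± 0.19. ALK and FGF9 thus fell in the libraries in which ERBB3, FGFR2, FGFR3, NTRK2 and RET rose.

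Among BMP and TGF-beta genes, 13 of 30 tested rose and 6 fell, beside 28.7% and 29.4% of all genes tested. The receptors TGFBR2 and BMPR2 rose by 1.62 ± 0.11 and 1.60 ± 0.14, and ID2, a BMP target, by 1.40 ± 0.15. YAP and TEAD targets were higher in 12 of 20 cases and lower in 1. CCN2 rose from 2.29, 2.55 and 2.34 CPM to 12.5, 17.5 and 11.4 CPM and CCN1 from 29.7, 24.8 and 27.5 CPM to 59.2, 64.2 and 62.8 CPM. Of 28 WNT pathway genes, 12 rose and 7 fell; DACT1, a WNT antagonist, rose by 3.67 ± 0.33 and the receptor FZD7 fell by 1.87 ± 0.11.

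In antigen presentation, 7 of 17 genes tested rose and 4 fell, beside 28.7% and 29.4% of all genes tested. HLA-E, a non-classical class I gene, rose from 92.6, 99.4 and 88.4 CPM to 252, 282 and 264 CPM. TAP1 rose by 1.13 ± 0.13, but B2M, the shared light chain, fell by 0.67 ± 0.13 (-0.62 and not called in a fit of all 48 samples), and CALR fell from 1751, 1449 and 1464 CPM to 522, 516 and 520 CPM. HLA genes share near-identical stretches, so reads may have been dropped or split among them. Of 21 interferon-stimulated genes tested, 9 rose and 2 fell; STAT2 rose from 24.9, 24.6 and 30.1 CPM to 79.2, 68.4 and 80.7 CPM.

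The 2 genomes that encode the respiratory chain went different ways. Of 34 nuclear genes, 19 fell and none rose, with a median of -0.37. Of 13 mitochondrially encoded genes, 7 rose and none fell, with a median of 0.52; MT-CYB rose from 3341, 3074 and 2452 CPM to 4893, 5719 and 5429 CPM. That rise is the same measurement as the larger mitochondrial share of reads given above, and its part in the other results was not tested. Of 34 lysosome genes, 12 rose and 11 fell, beside 28.7% and 29.4% of all genes tested. The cathepsin CTSF rose from 85.2, 87.7 and 97.8 CPM to 382, 337 and 345 CPM.

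A further comparison asks what separates the late from the early response. Against the DMSO libraries of 4 h, IDE196 had raised 1063 genes (6.89%) and lowered 1435 (9.3%) by 4 h. The 24 h effect was above the 4 h effect for 2085 genes (13.5%) and below it for 2648 (17.2%). Of the 2498 genes called at 4 h, 2161 were called at 24 h as well, 55 of them in the opposite direction, and 6807 genes were called at 24 h and not at 4 h. ERK output genes split by time: 18 of 22 were already lower at 4 h, and for 12 of these the 24 h effect was further below, as it was for 15 of all 22. At 4 h, ETV4 and VGF of that list, and NRCAM and ALK from outside it, stood between -0.18 and 0.04. At 24 h they stood between -6.21 and -3.76. Lineage factors were 4 higher and 4 lower at 4 h, and for 11 of 16 the effect at 24 h was above that at 4 h.

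**Figure D4:**
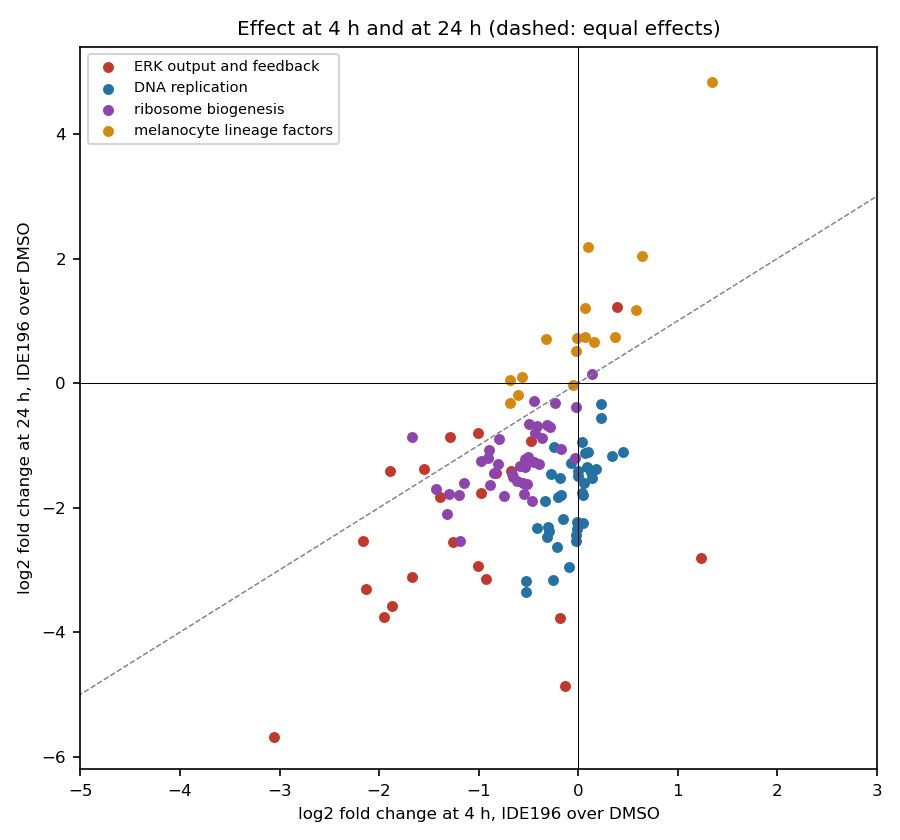
Log2 fold change of IDE196 over DMSO at 24 h against that at 4 h for 4 gene lists, 1 point per gene; on the dashed line both effects are equal. Ribosome biogenesis genes (purple) lie mostly left of 0 at 4 h, whereas DNA replication genes (blue) lie around 0 at 4 h and below 0 at 24 h.

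Few genes reversed. Among protein-coding genes called at both times and averaging 5 CPM or more, 23 were higher at 4 h and lower at 24 h. PKIA, an inhibitor of protein kinase A, went from 0.55 at 4 h to -1.21 at 24 h, POLD1, the catalytic subunit of DNA polymerase delta, from 0.34 to -1.17, and TONSL, a replication fork repair factor, from 0.40 to -1.53. Another 29 went the other way. NRP2, a semaphorin and VEGF receptor, was at -0.72 at 4 h and rose from 125, 92 and 82.3 CPM to 237, 205 and 216 CPM at 24 h. The adhesion scaffold NEDD9 went from -0.31 to 1.33 and ARHGAP31, a GTPase-activating protein of RAC1 and CDC42, from -0.41 to 1.16. A gene annotated on the same strand overlaps POLD1, so its count is uncertain.

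The last comparison sets IDE196 beside FHT-1015 at 24 h in the same line, each against its own DMSO libraries. The FHT-1015 effects and the differences between drugs come from a fit of all 24 samples of 92-1. The IDE196 values and calls are those of the 12-sample fit used above, so a difference may not match the 2 values exactly. FHT-1015 raised 4463 of 16917 genes tested (26.4%) and lowered 5086 (30.1%). The effects of the 2 drugs differed for 5586 genes (33%), with IDE196 above FHT-1015 for 2896 (17.1%) and below for 2690 (15.9%). Doses are not given and the compounds are unrelated, so sizes are set side by side only. Drug and set of libraries also cannot be told apart here. At 24 h, reads outside genes took 4.041% to 6.975% in the FHT-1015 set and 2.29% to 3.44% in the IDE196 set. Mitochondrially encoded genes took 7.07% to 7.434% in the DMSO libraries for FHT-1015 and 3.79% to 5.29% in those for IDE196. The part of these differences in the results was not tested. Among protein-coding genes called under both drugs and averaging 5 CPM or more in the 24 h libraries, 4277 of 5165 moved in the same direction, 583 were raised by IDE196 and lowered by FHT-1015, and 305 the reverse.

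DNA replication genes fell under both, with medians of -1.77 under IDE196 and -2.07 under FHT-1015 and 38 of 38 lower under each; IDE196 stood above FHT-1015 for 11 of them and below for 2. Lineage genes parted. SOX10 rose by 0.67 under IDE196 and fell by 4.70 under FHT-1015 (difference 5.36, edgeR adjusted p = 9.3e-19), and MITF was at 0.10 and -1.66 (difference 1.75, edgeR adjusted p = 1.3e-09). IDE196 stood above FHT-1015 for 10 of 16 lineage factors and below for 1, and above for 20 of 24 melanosome genes and below for none. MLIP, the mitochondrial aldehyde dehydrogenase ALDH1B1 and RAP1GAP, a GTPase-activating protein of RAP1, rose by 1.82, 0.87 and 1.57 under IDE196 and fell by 5.39, 3.77 and 3.19 under FHT-1015. ACAN belonged to the same set, with -4.14 under FHT-1015.

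Among ERK output genes, IDE196 stood below FHT-1015 for 15 of 22 and above for 3. Under FHT-1015, 6 of the 22 were higher and 10 lower, with a median of -0.25 beside -2.55 under IDE196. ETV1 fell by 3.15 under IDE196 and rose by 1.79 under FHT-1015 (difference -4.95, edgeR adjusted p = 2.1e-18). SPRY2, IQGAP2 and the lipoprotein receptor VLDLR fell by 3.76, 2.73 and 1.19 under IDE196 and rose by 0.71, 2.04 and 2.07 under FHT-1015. NR4A3 and SPRY4, described above for their falls under IDE196, were at 0.09 and 0.17 under FHT-1015 and did not pass the test there (difference -5.96 and -5.87). FOXO list genes had a median of 1.26 under each drug, with 14 of 21 higher under FHT-1015, but IDE196 stood above FHT-1015 for 7 of them and below for 4. The medians of ribosome biogenesis genes were -1.29 and -1.04, with IDE196 above for 3 of 40 and below for 15.

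**Figure D5:**
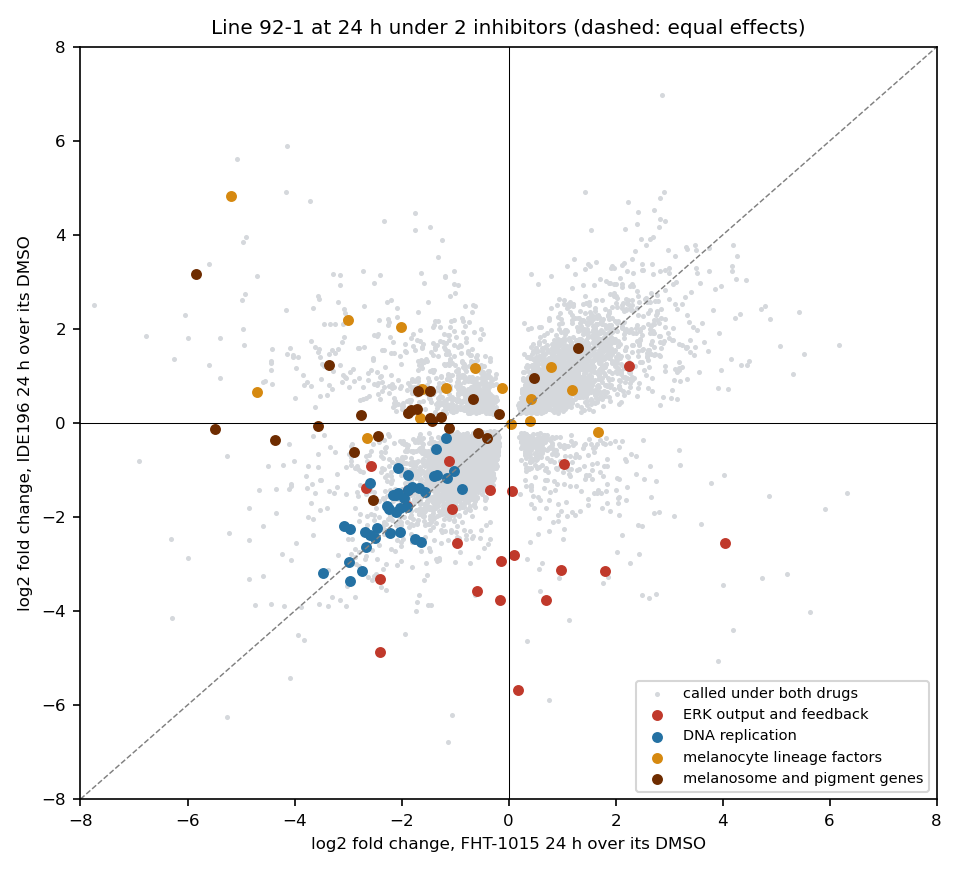
Log2 fold change of IDE196 24 h over its DMSO against that of FHT-1015 24 h over its own DMSO, for genes called under both drugs (grey) and for 4 gene lists in colour; on the dashed line both effects are equal. DNA replication genes (blue) lie in the lower left, lineage and pigment genes (orange, brown) mostly left of 0 with IDE196 values near or above 0, and ERK output genes (red) mostly below the line.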

How the data were processed

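The authors deposited, for each library, raw read counts per gene in a layout of 4 columns with unstranded and strand-specific counts; per the submitters' processing notes the build is hg38 and limma was used, and the aligner, the annotation release and the dose are not given in the sources used here. The unstranded column was used, since 49.87% to 50.0% of reads in the 12 libraries of the IDE196 experiment fell on the first strand. In the other libraries of 92-1 the share was 49.73% to 49.95%. Of 58870 genes, 58588 matched GENCODE 29, which supplied coordinates, and 58517 a current symbol; 92 spike-in rows held 0 reads and were left out. The members and gene lists were chosen with earlier results of these data known.

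Genes passing filterByExpr were normalised by TMM and fitted with edgeR 4.0.16 in R 4.3.3. The 12 samples of the IDE196 experiment were fitted as 4 groups of 3 libraries (8 residual degrees of freedom, TMM factors 0.962 to 1.04). All 24 samples of 92-1 were fitted for the FHT-1015 effects and the differences between drugs. The quasi-likelihood test was adjusted by Benjamini-Hochberg over all genes tested, with calls at 0.05. An SE is the size of the log2 fold change over the root of the F statistic. The method was tested on simulated data. The biological coefficient of variation was 0.112 and the median SE 0.142. Bounds on folds use a floor of 3 reads per library and cover counting error only. Named genes were the 12 largest rises and falls among called protein-coding genes averaging 5 CPM or more, with groups that did not overlap, the members of each list with the largest change or a needed role, the 3 genes a direction that reversed between times, and the 4 a direction that differed most between drugs; further list members were named after their values were seen. Some genes that meet these rules are not reported here. Replicates of a group differed by more than sampling noise, with chi-square per degree of freedom of 7.96 to 40.6. Same-numbered libraries of 4 h and 24 h did not deviate together (correlations of -0.0465 to 0.0949), so no block was used. Alternatives were RLE normalisation, no low-count filter, DESeq2 1.42.0, limma-voom 3.58.1, the summed stranded columns, other sets of samples in the fit, a replicate block and leaving out each library.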

Additional observations from a re-analysis of the deposited data

Results flagged for a closer look

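The effect of IDE196 differed between the times, by the test of the difference itself, for 2085 genes above and 2648 genes below their 4 h effect. All 38 DNA replication genes were below and 0 above. Of the ribosome biogenesis genes 27 were below and 0 above, and of ERK output genes 15 were below and 1 above. Melanocyte lineage factors went the other way, with 11 above and 0 below. Among single genes the log2 difference, 24 h minus 4 h, was -1.24 for RASGRP3, -1.76 for PKIA, -1.51 for POLD1 and -1.92 for TONSL. It was 1.90 for FOS, 0.66 for MITF, 1.86 for NRP2, 1.64 for NEDD9 and 1.57 for ARHGAP31. The controls of each time were separate DMSO libraries. No group held more than 3 libraries, so no library was examined as an outlier.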

How the results depend on the processing

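The counts of genes called in all 3 comparisons stayed within 1.5 times under every alternative run. With summed strands, 8653 of the 8968 genes called at 24 h kept their call and 45 were called in the opposite direction. For the difference between times and between drugs, 7 and 6 genes turned in this way. The fit of all 48 samples kept 6445 of the 8968 calls and turned 0. At 24 h the genes higher ranged from 3967 to 4090 and the genes lower from 4245 to 4344 when 1 library was left out, and fitting all 48 samples gave 3594 and 3149. No paired analysis was possible because treated libraries carry numbers 1 to 3 and controls 4 to 6; with number and treatment as a random replicate block over the times, 4467 genes were higher and 4531 lower, and with a fixed replicate block 1910 genes lay above and 2482 below their 4 h effect. Values near 0 changed sign. PRKCB was at 0.00 under RLE normalisation and with only the 6 samples compared, 0.01 with summed strands and with the replicate block, 0.04 with all 48 samples, and between -0.19 and 0.10 when 1 library was left out. FOS was at 0.04 with limma-voom, 0.02 with all 48 samples and between -0.21 and 0.07 when 1 library was left out, and PMEL between -0.14 and 0.02. BEST1, which overlaps FTH1 on the opposite strand, turned to -0.17 with summed strands. The cause of these changes of sign was not tested. With all 48 samples, 3 in place of 5 protein kinase C isoforms were higher and 2 in place of 5 melanosome genes lower. That fit also ended the calls of B2M, BCL2, BCL2L11, CDK6, CDT1, MKI67, PRIM1, PRKCD, PRKCI and TYR. GNAQ was called higher with only the 6 samples compared (0.23) and CDKN1A lower with no low-count filter (-0.25); TYR was not called with the former (-0.35), nor PRKCI with the latter (0.26). Low counts limit the falls of RGS16, FOSL1 and PDK4.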

Other observations

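The following genes lie outside the rule for named genes and were chosen after their values were seen. KCNA5, a voltage-gated potassium channel, had 4.22, 8.27 and 13.9 CPM in the DMSO libraries and 0 reads in each treated library at 24 h, so it was at least 61-fold lower. VGLL3, a cofactor of TEAD factors, had 6.14, 8.55 and 10.2 CPM under IDE196 and at most 3 reads in any DMSO library, so it was at least 61.9-fold higher.

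Several noncoding RNAs changed by at least 2-fold. LINC00511 rose from 8.39, 7 and 9.01 CPM to 43.7, 39.3 and 40.2 CPM, a log2 fold change of 2.33 ± 0.15. SNHG7, a host of small nucleolar RNAs, rose from 101, 118 and 181 CPM to 690, 655 and 544 CPM, whereas SNHG15, another such host, fell from 19.7, 17.3 and 23.6 CPM to 4.7, 4.15 and 3.62 CPM. VPS9D1-AS1 fell from 37, 39.3 and 42.6 CPM to 7.45, 8.6 and 8.75 CPM. SNHG7 overlaps DIPK1B and VPS9D1-AS1 overlaps VPS9D1 on the opposite strand, and reads of such pairs cannot be told apart here.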
